A study of Homo sapiens with 8 samples.

Results

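Long noncoding RNAs (lncRNAs) known for their work in the nucleus were followed through RNA-seq libraries of multiple myeloma (MM) cells: MALAT1, NEAT1, KCNQ1OT1, TUG1, PVT1 and MIAT. These 6 genes of the 63677 counted were taken by symbol, each symbol pointing to 1 Ensembl gene in the deposited tables. By their labels, the cells were the MM lines JJN3 and H929, given THZ1 at 50 nM or its vehicle DMSO for 24 h. THZ1 is a covalent inhibitor of the transcription kinase CDK7. There were 2 libraries for each labelled line and treatment and 8 in all. The libraries labelled H929 DMSO and H929 THZ1 differed in more than treatment, as described below. No other agent and no genetic change was part of the groups. The labels do not say whether the paired libraries of a group came from separate cultures, so the p-values measure the spread between these libraries, which may be technical. JJN3 stands for a single tumour, and whether the libraries labelled H929 do is uncertain, given how they differ.

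LncRNAs of this kind act chiefly as RNA. NEAT1 is the scaffold on which the proteins of paraspeckles, a type of nuclear body, assemble, and MALAT1 gathers in nuclear speckles next to stores of splicing factors. MALAT1 and the long form of NEAT1 lack an ordinary poly(A) tail: a tRNA-like fold is cut off downstream, and an A-rich tract at the new 3′ end pairs with U-rich stretches as a triple helix. KCNQ1OT1 is the imprinted antisense RNA of the KCNQ1 locus, TUG1 shares a bidirectional promoter region with MORC2, PVT1 is the lncRNA neighbour of the MYC oncogene, and MIAT carries short repeats that resemble the intron branch point read by splicing factor SF1.

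The sequence features that set MALAT1, NEAT1 and MIAT apart are shown because they bear on how these RNAs are kept and read. The 3′ regions below are genome sequence of build GRCh37 on the plus strand, chr11:65273487-65273658 for MALAT1 and chr11:65212906-65213082 for NEAT1. Capitals mark the letters TTTTTCTTT and TTTTGCTTT of the U-rich stretches and AAAAGCAAA of the A-rich tract, written as DNA.
MALAT1 3′ region: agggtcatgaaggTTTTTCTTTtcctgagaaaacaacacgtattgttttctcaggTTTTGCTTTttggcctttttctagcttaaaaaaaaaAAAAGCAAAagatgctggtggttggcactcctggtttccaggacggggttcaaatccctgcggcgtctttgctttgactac
NEAT1 3′ region: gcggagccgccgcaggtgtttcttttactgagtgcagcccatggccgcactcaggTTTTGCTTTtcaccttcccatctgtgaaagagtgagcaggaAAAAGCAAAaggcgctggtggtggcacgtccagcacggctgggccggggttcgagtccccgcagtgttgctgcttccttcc
The MALAT1 stretch held both U-rich forms and the A-rich letters, whereas the NEAT1 stretch held TTTTGCTTT and AAAAGCAAA. Of 152502 windows of 172 bases laid end to end on the longest transcript of each annotated lncRNA gene, 3 held both TTTTGCTTT and AAAAGCAAA. These genes include MALAT1 and NEAT1. The stretches shown were placed around the letters, whereas windows laid end to end can split such a pair, so the share is only a rough guide. The annotated NEAT1 gene ends at position 65213011, so the last bases of its stretch lie beyond the gene.

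For MIAT the stretch chr22:27067986-27068198 (GRCh37, plus strand) is given, with the repeat TACTAAC in capitals.
MIAT repeat stretch: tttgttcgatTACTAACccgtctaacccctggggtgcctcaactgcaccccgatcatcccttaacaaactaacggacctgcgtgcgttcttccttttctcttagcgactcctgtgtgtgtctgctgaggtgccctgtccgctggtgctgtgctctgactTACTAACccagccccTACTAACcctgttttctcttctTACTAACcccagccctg
This stretch lay wholly within the longest MIAT transcript and held 4 of the 7 copies of TACTAAC found there. At 0.690 copies per kb, MIAT exceeded NEAT1 (0.0440 per kb), KCNQ1OT1 (0.0327 per kb) and the sum of all 18661 annotated lncRNA genes, TUG1 included (0.0269 per kb), and the longest transcripts of MALAT1, TUG1 and PVT1 held 0. The GC content of the longest transcript was 42.0% for MALAT1, 43.1% for TUG1, 43.7% for KCNQ1OT1, 44.1% for NEAT1, 47.8% for PVT1 and 51.8% for MIAT, against a median of 46.0% over those genes.

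MALAT1 (ENSG00000251562) occupied chr11:65265111-65275544 on the plus strand, and NEAT1 (ENSG00000245532) lay upstream of it at chr11:65190245-65213011 on the same strand. KCNQ1OT1 (ENSG00000269821) lay on the minus strand at chr11:2618538-2721233, inside KCNQ1, with 121 bases of exon overlap. TUG1 (ENSG00000253352) was at chr22:31365231-31375381 on the plus strand, 471 bases from the start of MORC2 on the opposite strand, and the annotation used here gives its type as protein-coding. PVT1 (ENSG00000249859) was at chr8:128806772-129199347, 51575 bases downstream of MYC on the plus strand, and MIAT (ENSG00000225783) at chr22:27042375-27072438 on the plus strand. The counting was per gene, so the short and long forms of NEAT1 and the 190 annotated transcripts of PVT1 could not be told apart. Whether the counting used strand is not given in the sources used here, so counts of overlapping genes on opposite strands are uncertain. Annotated antisense genes over MALAT1, TUG1 and MIAT that were in the table had 0 counts in all 8 libraries, which does not settle whether strand was used. TALAM1, which overlaps 8121 bases of MALAT1 exon on the opposite strand, was not in the table.

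Total counts ran from 17476443 to 19194371 per library, and 3 counts, the most that an observed 0 can hide, stood for 0.156 to 0.172 CPM (counts scaled to the library total) for counting error only. Of 9 plasma cell markers, 8 had at least 232 counts in every library, and SLAMF7 had 372, 374, 99 and 109 in JJN3 (DMSO, then THZ1), 2 and 174 with the label H929 DMSO and 8948 and 9173 with the label H929 THZ1. Of the B cell markers, CD22 was at 0 in all 8 libraries, PAX5 had at most 12 counts, and MS4A1 had 48, 72, 28 and 16 in JJN3 and at most 4 elsewhere. The libraries labelled H929 differed in more than treatment. Lambda genes took about 98.0% or more of the light chain V counts where the label was H929 DMSO and 0.194% to 0.203% where it was H929 THZ1, while in JJN3 they took 0.244% to 0.369% throughout. The gene FGFR3 had 45 and 285 counts with the label H929 DMSO and 14117 and 13411 with the label H929 THZ1, the ribosomal protein gene RPS4Y1 had 4243 and 4113 against 0 and 0, and the integrin gene ITGAM had 607 and 463 against 0 and 0. Of 4 T cell markers, CD3E had 15 and 26 against 640 and 650, CD8A had 121 and 108 against 0 and 0, and CD3D and CD2 had at most 6 counts. The other 3 myeloid markers beside ITGAM had at most 14 counts in any library. MAF had 18006 and 16310 counts with the label H929 DMSO against 2729 and 2942 with the label H929 THZ1. Over genes with an average of at least 3 on the log2 CPM scale, libraries of these 2 labels correlated at 0.633 to 0.673. JJN3 libraries with DMSO and THZ1 correlated at 0.937 to 0.949. The part of these markers in the members' values was not tested. The source of the cells and THZ1 cannot be told apart between these labels, so JJN3 is described first and the H929 values are given for the libraries as labelled.

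Not every member was abundant here. Ranked by CPM scaled over the 8 libraries with TMM (the trimmed mean of M values, which corrects for library composition), among the 12818 annotated lncRNA genes plus TUG1, NEAT1 was at place 2 in JJN3 with DMSO, TUG1 at 8, PVT1 at 13 and MALAT1 at 24, while MIAT was at 335 and KCNQ1OT1 at 3091. Per kb of annotated exon, TUG1 led in JJN3 with DMSO at 14.5 ± 0.391 CPM per kb (SD, n = 2), followed by NEAT1 at 9.28 ± 0.0151, MALAT1 at 4.79 ± 0.460, PVT1 at 3.09 ± 0.184, MIAT at 0.220 ± 0.0122 and KCNQ1OT1 at 0.000279 ± 0.000395. The place of PVT1 in this order depended on the length used: over its longest transcript of 2450 bases, in place of 25431 bases of joined exons, its level was 32.0 ± 1.91 CPM per kb. Lengths are those of the annotation used here and approximate those of the authors' counting. After THZ1 in JJN3, MALAT1 moved to place 3 by CPM and NEAT1 stayed at place 2. Their levels per kb of annotated exon were 17.6 ± 6.94 and 17.1 ± 0.803 CPM per kb. Ranked per kb among the same genes, MALAT1 and NEAT1 were at places 22 and 24 with THZ1 and 93 and 47 with DMSO. TUG1 was at place 28 per kb with DMSO.

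In JJN3, MALAT1, NEAT1, PVT1 and MIAT rose after THZ1. MIAT and MALAT1 had the largest rises among the 5 members tested, at 3.81 and 3.71 times the DMSO level, and NEAT1 and PVT1 followed at 1.86 and 1.76 times. TUG1 was 1.34 times lower, short of the fold threshold, and KCNQ1OT1 was too scarce to be tested. Genes were called at an adjusted p under 0.05 and a log2 fold change beyond 0.5 by the quasi-likelihood test of edgeR, adjusted over all genes tested by Benjamini-Hochberg, with the thresholds of the study. Of the 5 members that passed the filter on low counts, 4 were called higher and 0 lower, where 20.6% of the 13984 genes tested were called higher, 21.3% lower and 41.8% in either direction. In bulk RNA, a change in the number of cells of a kind and a change in RNA per cell cannot be told apart. The levels are relative to the other RNA of each library, scaled without an external standard. A rise here is therefore a rise in share, and a change in total RNA per cell would not be seen.

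**Figure D1:**
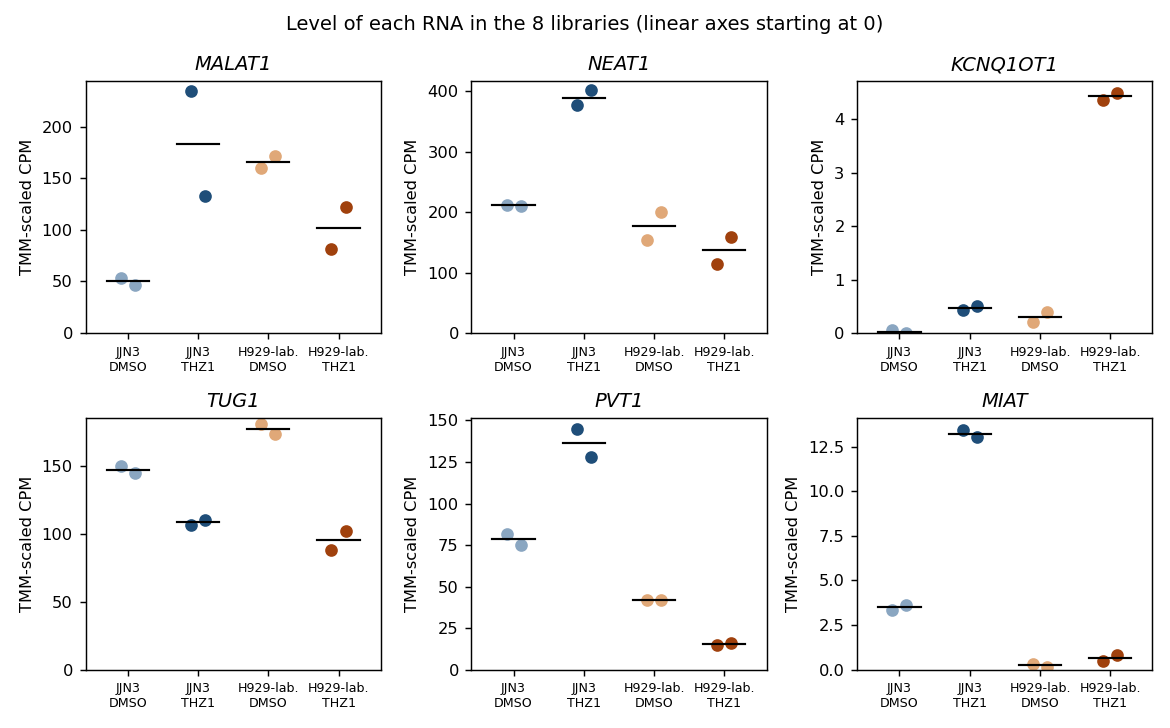
Each panel shows 1 RNA, with TMM-scaled CPM on a linear axis from 0, the 8 libraries as points by group (JJN3 DMSO, JJN3 THZ1, and the libraries labelled H929 DMSO and H929 THZ1), and the mean of each pair as a line. In JJN3, the MALAT1, NEAT1, PVT1 and MIAT points with THZ1 lay above those with DMSO, and the MALAT1 pair with THZ1 was the most widely spread.

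MALAT1 had 1032 and 910 counts in the JJN3 libraries with DMSO and 3842 and 2385 in those with THZ1. On the TMM-scaled CPM scale the means were 50.0 ± 4.80 and 184 ± 72.4 (SD, n = 2), and both THZ1 libraries were above both DMSO libraries. The log2 fold change was 1.89 (SE 0.205, adjusted p = 1.9e-05, edgeR's quasi-likelihood test). The THZ1 libraries themselves differed 1.77-fold, a gap wider than in 99.2% of genes with an average of at least 3 on the log2 CPM scale. Leaving out the THZ1 library with the higher value gave 1.42 and leaving out the other gave 2.25, and the call held in both cases. The spread edgeR estimated for MALAT1, a biological coefficient of variation of 0.137, exceeded the trend of 0.0630 for genes of its level.

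NEAT1 rose with a tight spread. It had 4087 and 4119 counts under DMSO against 6162 and 7242 under THZ1, or 211 ± 0.343 and 390 ± 18.3 CPM (SD, n = 2). Every THZ1 library was above every DMSO library, at a log2 fold change of 0.90 (SE 0.0836, adjusted p = 7.31e-06, edgeR's quasi-likelihood test). With any 1 library left out the value lay between 0.85 and 0.94.

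MALAT1 and long NEAT1 share the lack of an ordinary poly(A) tail with the replication-dependent histone messenger RNAs, and the selection of RNA for the libraries is not given in the sources used here. Summed counts on histone genes were 146 and 149 CPM in JJN3 with DMSO and 737 and 805 CPM with THZ1. Of 15 structural RNAs that lack a poly(A) tail, 2 could be tested, and the whole list summed to 21 and 32 counts under DMSO against 73 and 48 under THZ1. RN7SK, the RNA that holds the kinase P-TEFb inactive, had 1, 2, 23 and 11 counts in the order DMSO to THZ1, and RN7SL1, the RNA of the signal recognition particle, had 1, 1, 12 and 11. RN7SK and RN7SL1 are the 2 that were tested, and they passed the filter on low counts through the THZ1 libraries alone. Their rise is therefore no independent support for a direction of the list. The mitochondrial share of counts was 3.36% and 1.65% with DMSO and 5.34% and 6.63% with THZ1. Histone genes had 93.1 and 78.7 CPM with the label H929 DMSO and 298 and 304 CPM with the label H929 THZ1. The list of structural RNAs went the other way there, with 94 and 116 counts against 31 and 19. The part of any of these in the MALAT1 and NEAT1 differences was not tested.

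MIAT was low in JJN3 but its values were close within each pair. It had 65 and 71 counts under DMSO against 220 and 234 under THZ1, and the CPM means were 3.50 ± 0.193 and 13.2 ± 0.313 (SD, n = 2). The groups did not overlap, and the log2 fold change was 1.93 (SE 0.165, adjusted p = 4.3e-06, edgeR's quasi-likelihood test), between 1.86 and 1.98 with any 1 library left out. MIATNB, which overlaps MIAT on the same strand, had 24, 23, 17 and 22 counts in the same 4 libraries.

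PVT1, the neighbour of MYC, moved opposite to it. PVT1 had 1581 and 1468 counts under DMSO against 2373 and 2301 under THZ1, or 78.5 ± 4.68 and 137 ± 12.1 CPM (SD, n = 2). The log2 fold change was 0.81 (SE 0.0885, adjusted p = 1.98e-05, edgeR's quasi-likelihood test), and it stayed between 0.72 and 0.90 with any 1 library left out. MYC had 22083 and 22167 counts under DMSO against 10047 and 12233 under THZ1 and fell by 0.80 on the log2 scale (adjusted p = 5.13e-05, the same test). RNU1-106P, a U1 small nuclear RNA copy inside a PVT1 exon, had 4 and 5 counts under DMSO against 37 and 45 under THZ1. Its part in the PVT1 count was not tested.

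TUG1 had 2906 and 2826 counts under DMSO against 1748 and 1992 under THZ1. Both THZ1 libraries were below both DMSO libraries, with means of 148 ± 3.97 and 109 ± 2.74 CPM (SD, n = 2). The log2 difference was -0.42 (SE 0.0773, adjusted p = 0.000708, edgeR's quasi-likelihood test), past the p threshold but within the fold threshold. With library totals in place of TMM factors it was -0.53 and was called lower, and that scaling moved the median of all genes from -0.00 to -0.10. MORC2, the gene across the shared promoter region and a chromatin protein gene, had 1944 and 2124 counts under DMSO against 927 and 1013 under THZ1 and fell by 0.87 on the log2 scale (adjusted p = 7.75e-06, the same test).

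KCNQ1OT1 was near the limit of detection in JJN3, with 1 and 0 counts under DMSO against 7 and 9 under THZ1. The ratio of the summed counts, 16 against 1, was 17.0 after scaling, with an exact 95% interval of 2.65 to 714 that covers counting error only. The gene did not pass the filter on low counts. Without a filter edgeR's quasi-likelihood test gave an adjusted p of 0.0115, and DESeq2 gave 0.0842. KCNQ1, which surrounds it on the opposite strand and encodes a potassium channel, had 327 and 312 counts under DMSO against 297 and 281 under THZ1 (log2 difference 0.05, adjusted p = 0.745, edgeR). CDKN1C, the cell cycle inhibitor gene of the same imprinted region, had 271 and 255 counts under DMSO against 710 and 811 under THZ1 and rose by 1.72 on the log2 scale (adjusted p = 9.01e-07, edgeR).

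**Figure D2:**
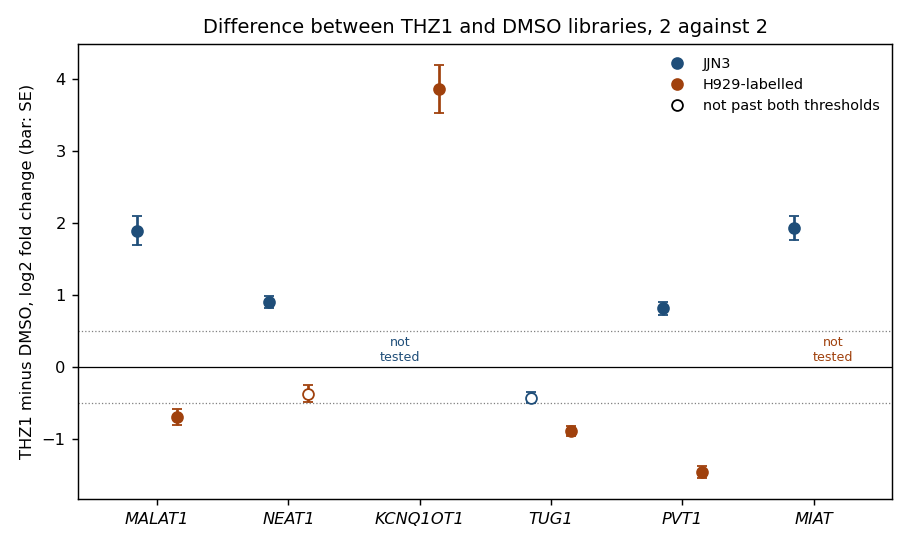
The log2 fold change of THZ1 against DMSO is plotted for each RNA with its standard error, in JJN3 and between the libraries labelled H929 (2 libraries against 2), with filled points past both thresholds and dotted lines at 0.5 and -0.5. MALAT1, NEAT1 and PVT1 lay above 0 in JJN3 and below 0 between the H929 labels, and TUG1 lay below 0 in both.

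The lncRNA class as a whole gives the background to the rise of MALAT1, NEAT1, PVT1 and MIAT in JJN3, and it depended on which lncRNAs were taken. Of 1298 lncRNA genes tested, 394 (30.4%) were called higher and 193 (14.9%) lower, with a median log2 fold change of 0.25, while among 11589 protein-coding genes 2148 (18.5%) were called higher and 2636 (22.7%) lower, with a median of -0.04. Among the 169 lncRNA genes with an average of at least 3 on the log2 CPM scale, a group that holds MALAT1, NEAT1, PVT1 and MIAT, 37 (21.9%) were called higher and 55 (32.5%) lower, with a median of -0.19. The split by level was chosen after the first counts were seen. The lncRNA median stayed above 0 in edgeR with library totals (0.14) and with size factors of the kind DESeq2 uses (0.26). The DESeq2 fit itself gave 0.39 over the 2088 lncRNA genes it tested. A scarce gene can pass the filter through the group where it is higher alone, so the share called among all lncRNA genes holds that selection.

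**Figure D3:**
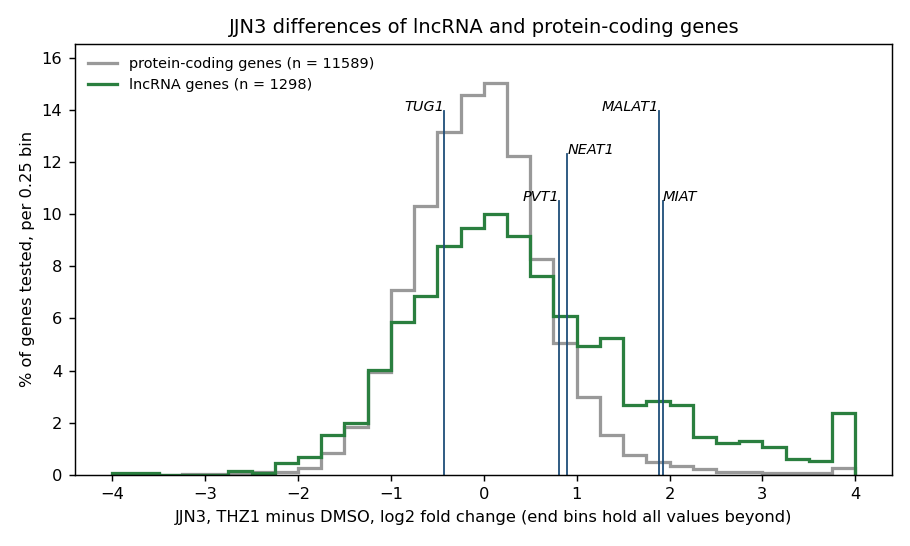
The share of genes per 0.25 bin of log2 fold change in JJN3 is drawn for 1298 lncRNA genes and 11589 protein-coding genes, with the 5 tested members as vertical lines. The lncRNA curve has a longer tail at high values, in which MALAT1 at 1.89 and MIAT at 1.93 lie, whereas TUG1 at -0.42 lies in the bulk of both.

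The proteins that work with these RNAs did not move as one in JJN3. Of 30 paraspeckle protein genes 29 were tested, and 9 were called lower and 4 higher, with a median log2 fold change of -0.14 beside -0.00 over all genes. The genes NONO, PSPC1 and RBM14, which encode core proteins that bind NEAT1 or its bodies, had differences of -0.15, 0.09 and 0.02 (adjusted p = 0.18, 0.344 and 0.853, edgeR's quasi-likelihood test). SFPQ, another core paraspeckle protein gene, had 17516 and 17789 counts under DMSO against 10619 and 10159 under THZ1 and fell by 0.57 on the log2 scale (adjusted p = 0.000611, the same test). HNRNPA1, a splicing repressor gene, fell by 1.06, RBMX by 0.96 and BCL11A, a lymphoid transcription factor gene, by 0.87. RBM12, BCL6, the repressor gene of germinal centre B cells, and NUDT21, which encodes a cleavage factor subunit, rose by 0.97, 0.96 and 0.70.

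Among 25 genes of nuclear speckles and MALAT1 partners, 7 were called lower and 3 higher, with a median of -0.12. SRSF1, the splicing factor gene whose protein MALAT1 is known to bind, had 9949 and 9507 counts under DMSO against 2822 and 3339 under THZ1 and fell by 1.47 on the log2 scale (adjusted p = 8.82e-07, edgeR's quasi-likelihood test). RPP38 and RPP40, subunits of RNase P, the enzyme that frees the 3′ end of MALAT1, fell by 1.07 and 0.92. The RNase P subunit genes RPP30 and POP1 of the same list did not fall. They had 71.2 ± 1.79 and 56.9 ± 0.0670 CPM with DMSO and 74.3 ± 4.75 and 65.1 ± 9.22 CPM with THZ1 (SD, n = 2). QKI, the export factor gene NXF1 and SRRM2, a speckle scaffold gene, rose by 0.98, 0.85 and 0.68. SON, the other speckle scaffold gene, differed by 0.33 and METTL16, whose protein binds the MALAT1 triple helix, by -0.33, both within the fold threshold.

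Genes of the nuclear exosome, which degrades nuclear RNA, and its adaptors had 11 of 27 called lower and 4 higher, with a median of -0.29. The exosome subunit genes EXOSC4, EXOSC8 and EXOSC3 fell by 1.45, 1.44 and 1.26. PAPD7, a noncanonical poly(A) polymerase gene, SRRT, which encodes a partner of the nuclear cap-binding complex, and PABPN1, the nuclear poly(A)-binding protein gene, rose by 1.11, 0.78 and 0.57. These counts stand beside 21.3% lower and 20.6% higher over all genes, and no test of a list was made.

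Other known lncRNAs went both ways. Of 53 that were counted, 40 were tested, with 10 called lower, 10 higher and a median of 0.13, beside 21.3% lower and 20.6% higher over all genes. LINC-PINT, a p53-induced lncRNA, had 94 and 80 counts under DMSO against 674 and 656 under THZ1 and rose by 3.13 on the log2 scale, and MIR22HG, host of a microRNA, rose by 1.45. MIR181A1HG, another such host, rose by 2.34 at 3 and 7 counts under DMSO against 31 and 14 under THZ1, and could pass the filter through the THZ1 libraries alone. HCP5, from the HLA region, had 345 and 320 counts under DMSO against 41 and 55 under THZ1 and fell by 2.60, followed by LINC00116 at -1.47 and SNHG16 at -1.14. Of the 20 protein-coding genes within 100 kb of a member 17 were tested, and 4 were called lower and 0 higher, a share lower near that 21.3%. Besides MYC and MORC2 these included SSSCA1, 62387 bases from MALAT1, at -1.21. FRMD8, 9249 bases from NEAT1, differed by -0.27 (adjusted p = 0.0401, edgeR's quasi-likelihood test).

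**Figure D4:**
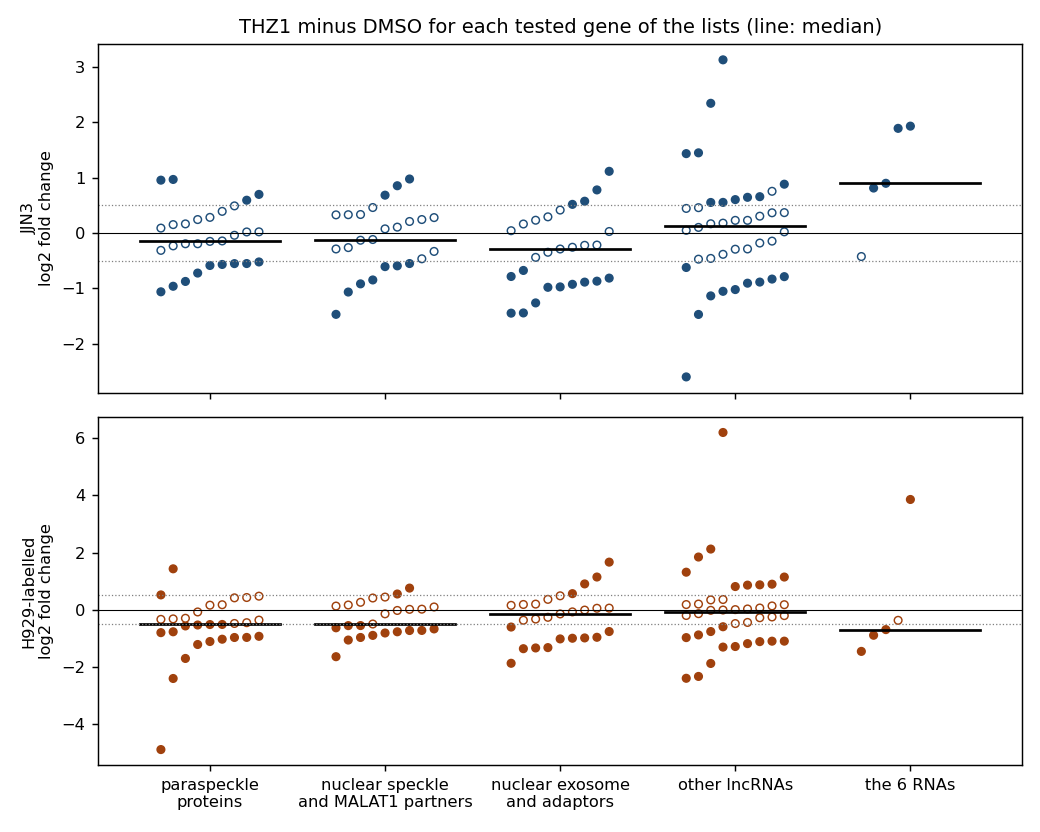
Each point is the log2 fold change of 1 tested gene of a list, THZ1 against DMSO, in JJN3 (upper) and between the libraries labelled H929 (lower, with a wider axis), filled where past both thresholds, with the list median as a line. The protein lists spread on both sides of 0 in JJN3, and 4 of the 5 tested members lay above 0.5.

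RefSeq promoters, from 250 bases before to 50 after the start, are given for MALAT1 and MIAT, which rose the most in JJN3 among the 5 members tested, and for TUG1, which was lower. These sequences are of build GRCh38.p14 on the plus strand, unlike the gene positions above, at chr11:65497488-65497787 for MALAT1 (the first of 2 entries), chr22:26646179-26646478 for MIAT and chr22:30969015-30969314 for TUG1. Capitals mark the GC box GGGCGG, the CCAAT box CCAAT, the TATA box TATAAA and the E-box CACGTG on either strand.
MALAT1 promoter: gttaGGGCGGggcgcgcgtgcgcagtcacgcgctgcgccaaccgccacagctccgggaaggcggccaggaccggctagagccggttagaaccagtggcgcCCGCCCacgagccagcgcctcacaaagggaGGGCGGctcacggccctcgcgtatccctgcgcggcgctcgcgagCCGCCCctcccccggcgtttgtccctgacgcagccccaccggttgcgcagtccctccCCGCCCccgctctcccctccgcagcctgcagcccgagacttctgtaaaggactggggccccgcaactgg
MIAT promoter: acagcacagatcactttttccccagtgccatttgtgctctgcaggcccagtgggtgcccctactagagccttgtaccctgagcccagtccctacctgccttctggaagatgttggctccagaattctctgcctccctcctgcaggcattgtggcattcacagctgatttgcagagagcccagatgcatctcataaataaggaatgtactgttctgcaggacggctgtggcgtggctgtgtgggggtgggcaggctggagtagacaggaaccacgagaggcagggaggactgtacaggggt
TUG1 promoter: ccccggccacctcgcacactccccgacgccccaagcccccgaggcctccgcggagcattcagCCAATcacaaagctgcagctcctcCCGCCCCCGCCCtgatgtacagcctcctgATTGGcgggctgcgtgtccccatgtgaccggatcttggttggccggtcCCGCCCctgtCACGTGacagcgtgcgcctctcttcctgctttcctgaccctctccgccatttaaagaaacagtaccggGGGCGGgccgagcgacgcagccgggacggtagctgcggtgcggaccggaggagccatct
The MALAT1 promoter held 5 GC boxes and none of the other motifs. TUG1 had 4 GC boxes, 2 CCAAT boxes and 1 E-box, the site that MYC and related factors read. The MIAT promoter held 0 of the 4 motifs. Of 35116 RefSeq promoters of this length, 45.0% held a GC box, 34.6% a CCAAT box, 11.5% a TATA box and 7.26% an E-box.

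Between the libraries labelled H929, the members went other ways. PVT1, TUG1 and MALAT1 were lower with the label THZ1 and KCNQ1OT1 was higher, by edgeR's quasi-likelihood test at the same thresholds. Of 5 members tested, 3 were called lower and 1 higher, where 32.6% of 14863 genes were called lower, 33.1% higher and 65.7% in either direction. Since most genes differed between these labels, the members' count sits close to the background.

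PVT1 had 777 and 758 counts with the label H929 DMSO and 278 and 300 with the label H929 THZ1, or 41.9 ± 0.139 and 15.2 ± 0.873 CPM (SD, n = 2). It was 2.74 times lower, at a log2 fold change of -1.45 (adjusted p = 2.58e-10, edgeR's quasi-likelihood test). MYC had 43929 and 41711 counts against 2577 and 2513, a log2 fold change of -4.12 (adjusted p = 5.31e-17), so that here both genes were lower.

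TUG1 had 3369 and 3132 counts against 1684 and 1935, or 177 ± 5.45 and 95.4 ± 9.69 CPM (SD, n = 2), with no overlap. Its log2 fold change was -0.89 (adjusted p = 3.3e-09, edgeR's quasi-likelihood test), beside -0.94 for MORC2 across the promoter.

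MALAT1 and NEAT1 rested on widely spread pairs. MALAT1 had 2977 and 3096 counts against 1559 and 2319, a log2 fold change of -0.69 (adjusted p = 5.2e-05, edgeR's quasi-likelihood test). Without H929 THZ1 replicate 1 the value was -0.42, within the fold threshold, and without replicate 2 it was -1.004. NEAT1 had 2866 and 3619 counts against 2171 and 3021, groups that overlapped on the CPM scale. Its log2 difference of -0.37 (adjusted p = 0.0121, the same test) was not called. It was called without H929 DMSO replicate 1 (-0.56) and without H929 THZ1 replicate 2 (-0.62), and was -0.15 and -0.14 without H929 DMSO replicate 2 and H929 THZ1 replicate 1. Both RNAs were higher in replicate 2 of the label THZ1, by 1.49 and 1.40 times, gaps wider than in 98.8% and 98.4% of genes.

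KCNQ1OT1 had 4 and 7 counts with the label H929 DMSO and 83 and 85 with the label H929 THZ1. Its log2 fold change was 3.86 (SE 0.336, adjusted p = 2.64e-08, edgeR's quasi-likelihood test), and the ratio of the summed counts, 168 against 11, was 15.3 with an exact 95% interval of 8.34 to 31.2 for counting error. With so few counts under the label DMSO it passed the filter through the THZ1 libraries alone, so its being called higher is no independent support for a direction among the members. The genes around it went the other way: KCNQ1 had 480 and 429 counts against 75 and 73, a log2 fold change of -2.66, and CDKN1C had 782 and 583 counts against 44 and 32, a log2 fold change of -4.21 (adjusted p = 1.98e-11 and 3.63e-12, edgeR). MIAT had 6 and 3 counts against 9 and 16 and did not pass the filter. Its ratio of summed counts was 2.78, with an exact 95% interval of 1.26 to 6.78 for counting error, and edgeR's quasi-likelihood test over all 8 libraries gave an adjusted p of 0.0256. It was not called by edgeR without a filter (adjusted p = 0.119) or by DESeq2 (0.244), nor over the 4 libraries with H929 DMSO replicate 1 (0.0584) or replicate 2 (0.192) left out, and it was called with H929 THZ1 replicate 1 left out (0.0311).

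**Figure D5:**
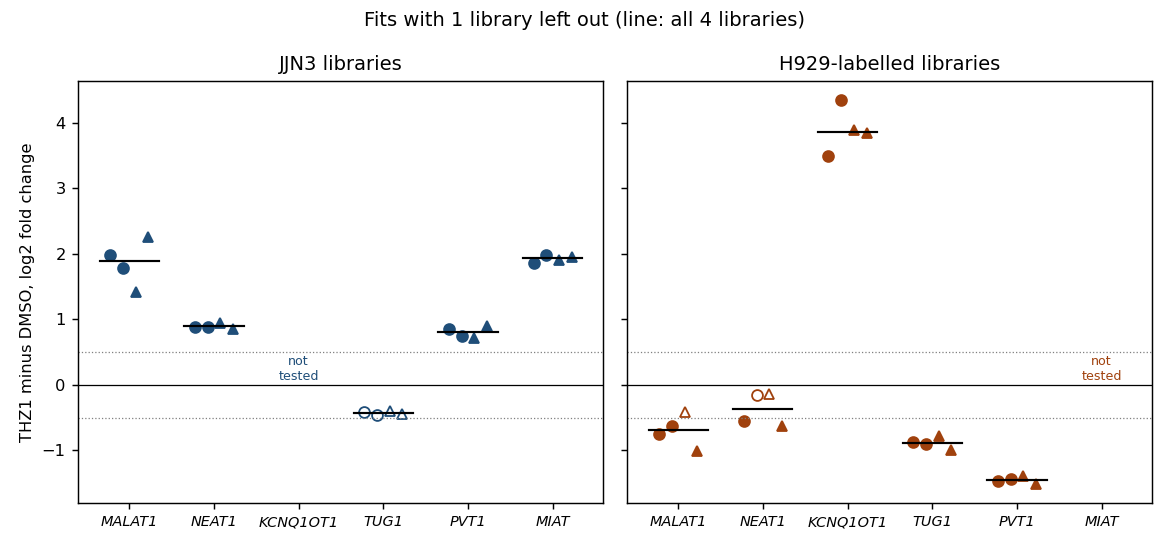
The log2 fold change of THZ1 against DMSO is shown for each RNA with each of the 4 libraries left out in turn (circles, a DMSO library left out; triangles, a THZ1 library), filled where past both thresholds, with the fit of all 4 libraries as a line. MALAT1 moved between 1.42 and 2.25 in JJN3 and between -1.004 and -0.42 for the H929 labels, and open points mark fits in which a threshold was missed.

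The partner genes of these RNAs were also compared between the H929 labels. Paraspeckle protein genes had 15 of 29 called lower and 2 higher (median -0.51), and speckle and MALAT1 partner genes 12 of 25 lower and 2 higher (median -0.50), beside 32.6% lower, 33.1% higher and a median of 0.01 over all genes. Nuclear exosome genes had 10 of 27 lower and 4 higher (median -0.14), and other lncRNAs 13 of 40 lower and 9 higher (median -0.08). LINC-PINT and HCP5, which led in JJN3, had log2 fold changes of 2.12 and -2.33 here.

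The difference between the response of JJN3 and the difference between the H929 labels was tested over all 8 libraries, which the comparisons above also used. MALAT1, PVT1 and NEAT1 had a higher value in JJN3 by 2.57, 2.26 and 1.26 on the log2 scale (adjusted p = 8.52e-07, 2.54e-10 and 1.53e-05, edgeR's quasi-likelihood test). Of the 6 members tested 3 were called higher and 0 lower, where 25.5% of 16122 genes were called higher, 28.1% lower and 53.7% in either direction. For TUG1 the difference was 0.46 (adjusted p = 0.00152), within the fold threshold, and for MIAT it was 0.52 (SE 0.642, adjusted p = 0.514). KCNQ1OT1 gave 0.01 (adjusted p = 0.903) on 1 count in JJN3 with DMSO, so no difference was detectable at this depth.

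The order of the 4 groups differed from RNA to RNA, as the plot of levels by library shows. Among DMSO libraries, 2 members were called lower in JJN3 than in the libraries labelled H929 and 2 higher, where 30.8% of 16122 genes were called lower, 30.7% higher and 61.5% in either direction. MIAT was higher in JJN3 by 3.80 and PVT1 by 0.91 on the log2 scale, and MALAT1 differed by -1.73 (adjusted p = 1.21e-07, 5.48e-08 and 1.21e-06, edgeR's quasi-likelihood test). MIAT passed the filter on low counts through the JJN3 libraries alone, so its call is no independent support for a direction among the members. KCNQ1OT1 was called lower at 1 and 0 against 4 and 7 counts (adjusted p = 0.0087, the same test), a call lost without JJN3 DMSO replicate 2 or H929 DMSO replicate 2. KCNQ1OT1 passed the filter on low counts through the libraries labelled H929 THZ1 alone, which lie outside this comparison. Its call is therefore no independent support either. NEAT1 differed by 0.25 (adjusted p = 0.0846) and TUG1 by -0.27 (adjusted p = 0.00434), neither past both thresholds.

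Among THZ1 libraries, 4 members were called higher in JJN3 and 1 lower, where 32.3% of genes were called higher, 31.6% lower and 63.9% in either direction. MIAT was higher by 4.31, PVT1 by 3.16, NEAT1 by 1.51 and MALAT1 by 0.84 on the log2 scale, and KCNQ1OT1 differed by -3.23 (adjusted p at most 0.00104 for each, edgeR's quasi-likelihood test). MIAT passed the filter on low counts through the JJN3 libraries alone, and KCNQ1OT1 through those labelled H929 THZ1 alone. The calls of MIAT and KCNQ1OT1 are therefore no independent support for a direction among the members. The MALAT1 value fell to 0.34, within the fold threshold, without JJN3 THZ1 replicate 1. TUG1 differed by 0.19 (adjusted p = 0.0337). Neighbours in the order that did not differ beyond their spread were JJN3 with THZ1 and the label H929 DMSO for MALAT1 (0.15, adjusted p = 0.496) and for KCNQ1OT1 (adjusted p = 0.324), and the DMSO pairs for NEAT1, by the same test.

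The genes whose levels over the 8 libraries came closest to each member were sought among 9675 or 9676 genes with an average of at least 3 on the log2 CPM scale. Closeness was the root-mean-square difference of log2 CPM after each gene was centred on its mean, and it is a description over 8 libraries that share depth and group. For MALAT1 the closest were LMTK2, MAFG and ZMAT3 at 0.254, 0.264 and 0.287, beside a median of 0.978 over all genes. NEAT1 was closest to PLEKHA8 (0.136), SUN1 (0.138) and ZNF587B (0.160), with a median of 0.782. TUG1 had the nearest companions of the 6, ANKRD13B (0.0560), CEBPZ-AS1 (0.0685) and ANKRD40 (0.0807), with a median of 0.611. TUG1 also varied the least itself, with a root-mean-square deviation from its own mean of 0.359, against 0.584 for NEAT1 up to 2.07 for MIAT. Distances are therefore not alike in scale between members. PVT1 was closest to PPT1 (0.131), ARL6IP5 (0.136) and RP1-152L7.5 (0.137), with a median of 1.27. KCNQ1OT1 and MIAT had no gene closer than 0.437 (IFNLR1) and 0.462 (SGK1), with medians of 2.00 and 2.13.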

How the data were processed

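RNA-seq of JJN3 and H929 with THZ1 or DMSO gave 8 libraries, grouped by their labels. Per the labels, the authors aligned single-end reads to hg19 with STAR 2.5.2a and counted them with featureCounts; the deposited counts per Ensembl gene, which are not normalized, were used here. The authors kept reads that map to 1 place. Their comparison tables (DESeq2 1.12.4) hold fold changes and p-values and were used only for gene symbols. In all, 0 value columns were left unmapped to a sample.

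The counts were tested with edgeR 4.0.16 in R 4.3.3 (TMM, filterByExpr, quasi-likelihood test, Benjamini-Hochberg), within each line and over all 8 libraries, after the scripts were tested on simulated data. DESeq2 1.42.0, other scalings and filters, a replicate block and leaving out each library were alternatives. A lone library left in a group was assumed to vary like the others. Total counts of 17476443 to 19194371 set the precision.

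Positions are GRCh37, from GENCODE lifted to that build. Promoters are RefSeq, found for 3 of the 6 members. PVT1 sequence and 2 genes of the lists are not reported here. Named genes were the members, textbook partners, and the 3 largest falls and rises past the thresholds in JJN3 per list. Pairwise tests of the 4 groups were added after the data were seen. The members and lists were chosen with earlier results of these data known.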

Additional observations from a re-analysis of the deposited data

Results flagged for a closer look

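MALAT1, PVT1 and NEAT1 were flagged because their change with THZ1 in JJN3 differed from the difference between the H929 labels, by a test of that difference over all 8 libraries. That test called 3 of 6 members, where 53.7% of 16122 genes were called in either direction, so such a call was common. The excess in JJN3 on the log2 scale was 2.57 for MALAT1, 2.26 for PVT1 and 1.26 for NEAT1, and in each case JJN3 rose while the libraries labelled H929 THZ1 were lower than those labelled H929 DMSO, for NEAT1 short of the fold threshold. With any 1 library left out the NEAT1 value lay between 1.01 and 1.496. The H929 labels also differ in light chain, FGFR3 and RPS4Y1 counts, and the source of the cells and THZ1 cannot be told apart there.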

How the results depend on the processing

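Of 373 alternative values for the members, 356 kept their direction and their side of the thresholds, 5 fell short of a threshold, 4 came to pass it and 8 changed sign. The count of members called in each comparison moved by less than 1.5 times throughout. The sign changes concerned values that were not called. The interaction of KCNQ1OT1 was -0.13 with library totals, -0.067 without a filter, -0.013 with a filter of 1 CPM in 2 libraries, and between -0.86 and 2.26 with 1 library left out. That of MIAT was between -0.041 and 0.97 with 1 library left out, below 0 without H929 DMSO replicate 1. The cause was not tested. In the H929 labels the MALAT1 call was lost without a filter (adjusted p = 0.0622, edgeR). Library totals moved the median of all genes to -0.10 in JJN3 and -0.18 in the interaction. Deviations of same-numbered libraries correlated at -0.0146 in JJN3 and -0.0377 in the H929 labels. These values show no shared shift by replicate number, but they cannot tell whether same-numbered libraries were prepared together. With a replicate block 3013 genes were lower and 2889 higher in JJN3, against 2972 and 2877, and the members called were 4 in both. Annotated length moved levels per kb of TUG1, PVT1 and MIAT. Scarce counts limit KCNQ1OT1 and MIAT.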
